A study of Drosophila melanogaster with 6 samples.

Results

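The genes described here are the splicing regulators of L3 lamina neurons, as the depositors' own gene categories define them. They are the 58 genes, of 13727 in the authors' deposited table, whose only category is splicing regulator and whose mean normalized count is above 0. No gene with that category had a mean of 0, and all 58 received an adjusted p. The lowest mean normalized count among them by the authors' deposited table was 5.35, for CG17764. The category is broader than its name: besides parts of the spliceosome it holds factors that cleave and polyadenylate transcripts, subunits of the Integrator complex and a few helicases.

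The series compared L3 neurons of 2 genotypes, sorted by fluorescence from optic lobes 24 h after puparium formation. The 3 WT samples are titled FRT40, the chromosome carrying the recombination site. The 3 dFezf1 samples carry an allele of dFezf, which encodes a zinc-finger transcription factor and is named erm (earmuff) in the annotation. The titles bear November dates for WT and December dates for dFezf1, so title date and genotype cannot be told apart. Per the design text all libraries were prepared and sequenced together. How the cells were labelled and made mutant, the sex and number of the animals, and the other alleles present are not stated in the sources used here. Every value below comes from the authors' deposited comparison of dFezf1 with WT, because the columns of single libraries carry codes that match no sample label. Values of single samples, their spread and their depth were therefore not used, and the precision given is the standard error (SE) deposited with each log2 fold change. That fold change is shrunken toward 0. Levels are the authors' mean abundances per group, in a unit that these sources do not state. They were read as length-scaled, because the mean normalized count divided by them rose with exon length (Spearman correlation 0.951 over 5738 genes, a description across genes). In sorted bulk RNA, fewer cells of a type and less RNA per cell cannot be told apart.

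Splicing removes introns from pre-mRNA in the spliceosome, which is built from small nuclear ribonucleoproteins (snRNPs). The U1 snRNP recognises the start of the intron and the U2 snRNP its branch point, and the tri-snRNP of U4, U6 and U5 joins them. A series of RNA helicases then drives the rearrangements that lead to catalysis and to release of the spliced product. SR proteins, hnRNPs and other RNA-binding regulators bias the choice of splice sites, which diversifies many neuronal transcripts in the fly. The core machinery is needed in every cell type, whereas several of the regulators are restricted to particular tissues.

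Of the 58 splicing regulators, 3 passed an adjusted p of 0.05 by the authors' deposited table, beside 6.82% of all 9387 tested genes. The lower genes were Prp31 and ldbr, beside 2.49% of all tested genes lower, and the higher gene was how, beside 4.33% of all tested genes higher. As a share the 3 calls are 5.17% of the members, near the background. The median log2 fold change of the members by the authors' deposited table was -0.07, with 26 above and 32 below 0, against a median of 0.03 over all tested genes. The median size of the log2 fold change, sign ignored, was 0.40 in the members and 0.48 in all tested genes of the authors' deposited table. At an unadjusted p under 0.05 there were 6 members by the authors' deposited table, or 10.3%, beside 14.2% of all tested genes. With no filter on low counts the members called were 3 in number (6.46% of all genes called), and at an adjusted p under 0.01 they were 2, ldbr and how (5.05%). Prp31 was the 1 call left at a mean normalized count of 100 or more (5.07% of all genes called), where the 95% interval also excludes 0 (3.82%), and among genes above 0 in both groups (3.19%).

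**Figure D1:**
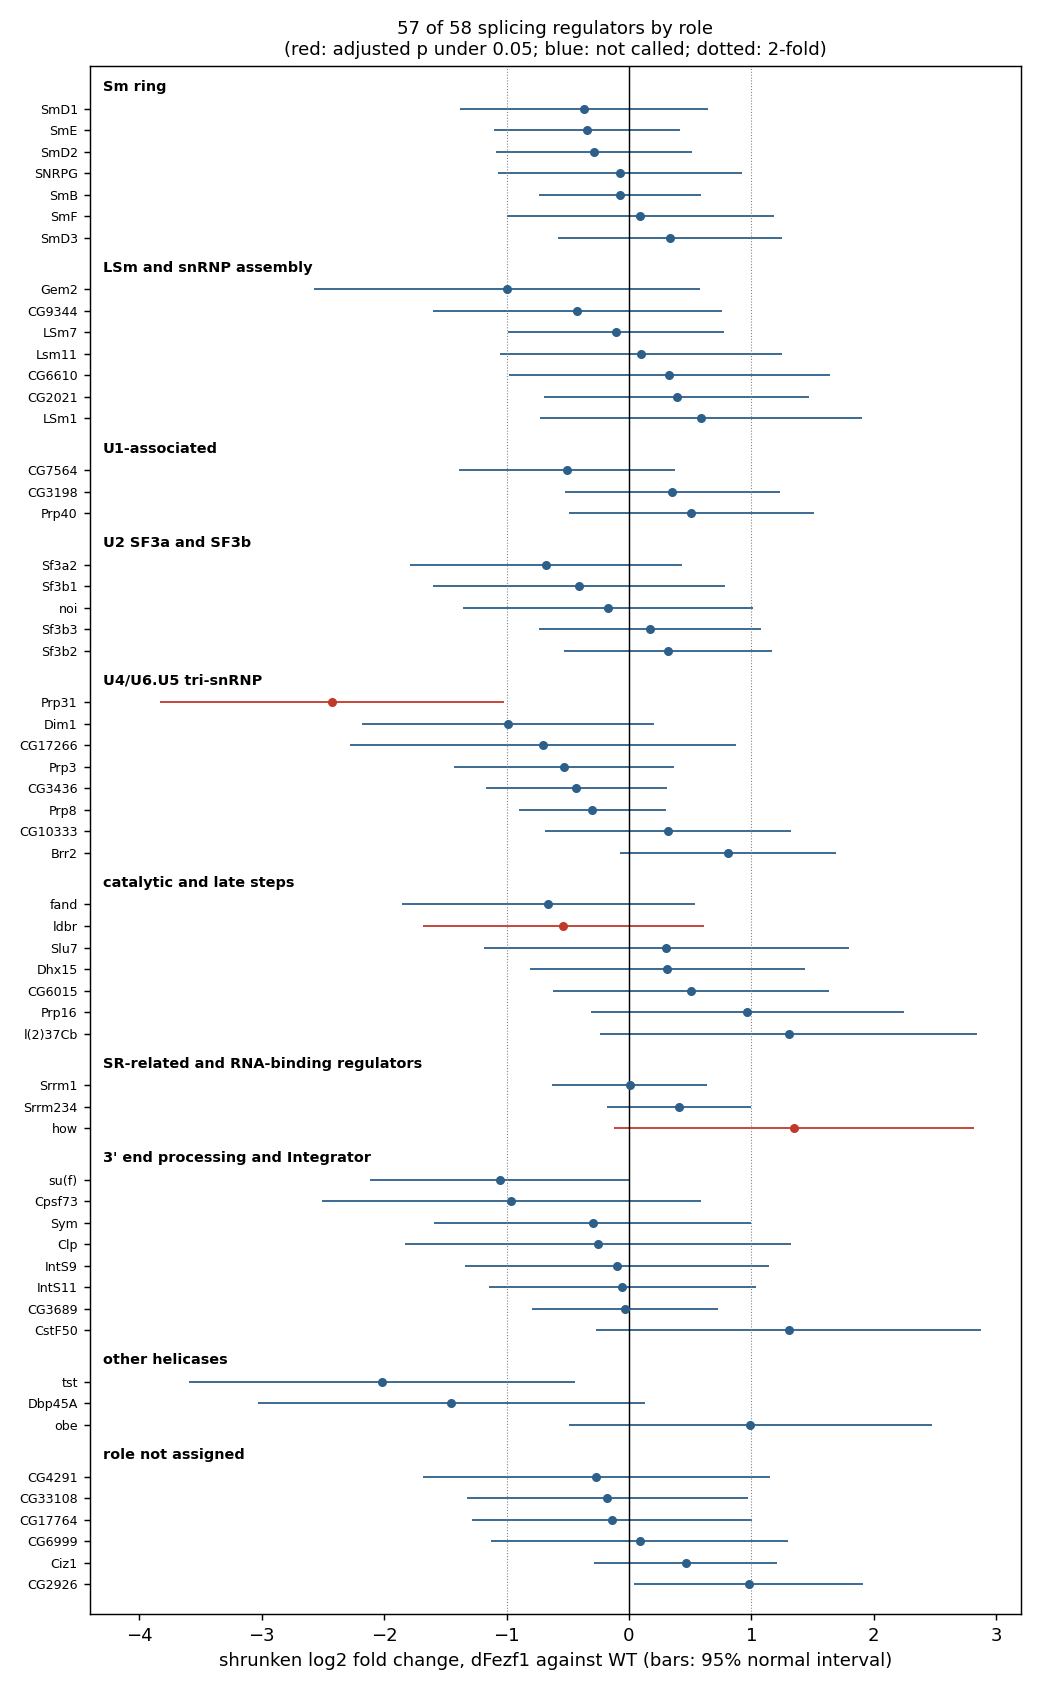
Shrunken log2 fold change (horizontal axis, dFezf1 against WT) of 57 of the 58 splicing regulators, grouped by role, with the 95% normal interval from the deposited SE; red points passed an adjusted p of 0.05 and dotted lines mark a 2-fold change. Prp31, at -2.43, is the 1 red point whose interval excludes 0, and most intervals of the blue points cross a dotted line.

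Prp31 encodes a protein of the tri-snRNP that binds U4 snRNA, and its human counterpart is known as a retinitis pigmentosa gene. The authors' mean abundance of Prp31 was 7.19 (WT) and 0.588 (dFezf1). Its log2 fold change by the authors' deposited table was -2.43 ± 0.72 (SE), with a 95% interval of -3.83 to -1.02. The adjusted p was 0.0121 by the authors' deposited table, so Prp31 does not pass a threshold of 0.01. In the annotation of build BDGP6 the gene spans 15159100 to 15161138 of chromosome 3L, on the plus strand. Its exons share 224 of 1862 bases with CG7011 on the other strand. CG7011 had a log2 fold change of -0.14 ± 0.78 by the authors' deposited table (adjusted p = 0.972). The libraries were made by Smart-seq2 and Nextera chemistry, which keeps no record of strand. Reads in the shared stretch therefore cannot be assigned to Prp31 or CG7011 by strand.

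The other calls, ldbr and how, are of genes listed at 0 in 1 group. ldbr encodes the lariat debranching enzyme, which opens the looped intron after splicing so that it can be degraded. Its mean abundance by the authors' deposited table was 0.515 in WT and it is listed at 0 in dFezf1, at a mean normalized count of 24.8. Its adjusted p by the authors' deposited table was 1.81e-06, yet its shrunken log2 fold change was only -0.54 ± 0.59 (SE). how, held out wings, encodes a KH-domain RNA-binding protein of the Quaking family known for roles in muscle, tendon cells and glia. It is listed at 0 in WT and at a mean abundance of 0.782 in dFezf1 by the authors' deposited table, with an adjusted p of 0.00850. The log2 fold change of how by the authors' deposited table was 1.35 ± 0.75 (SE), and its 95% interval, -0.12 to 2.82, includes 0.

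The deposited statistic and the shrunken fold change disagree for these genes. For Prp31 the fold change divided by its SE was -3.39 and the authors' statistic was -3.42. For ldbr the same pair of values was -0.91 and -5.47, and for how it was 1.80 and 3.52, by the authors' deposited table. A difference of 10% or more between the pair was found in 3 of the 58 members, the third being obe with 1.31 and 1.52, and in 22.6% of all genes with a p-value. ldbr belongs to a set of 209 tested genes of the authors' deposited table with a statistic beyond 4 in size and a fold change within 1.2 SE of 0. That set was delimited after its values were seen. All 209 were called, 208 of them are listed at 0 in 1 group, and their median mean normalized count was 24.7. Among all 1417 tested genes listed at 0 in 1 group, 22.8% were called by the authors' deposited table. Whether single libraries carry the reads of ldbr and how was not tested, since library values were not used.

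**Figure D2:**
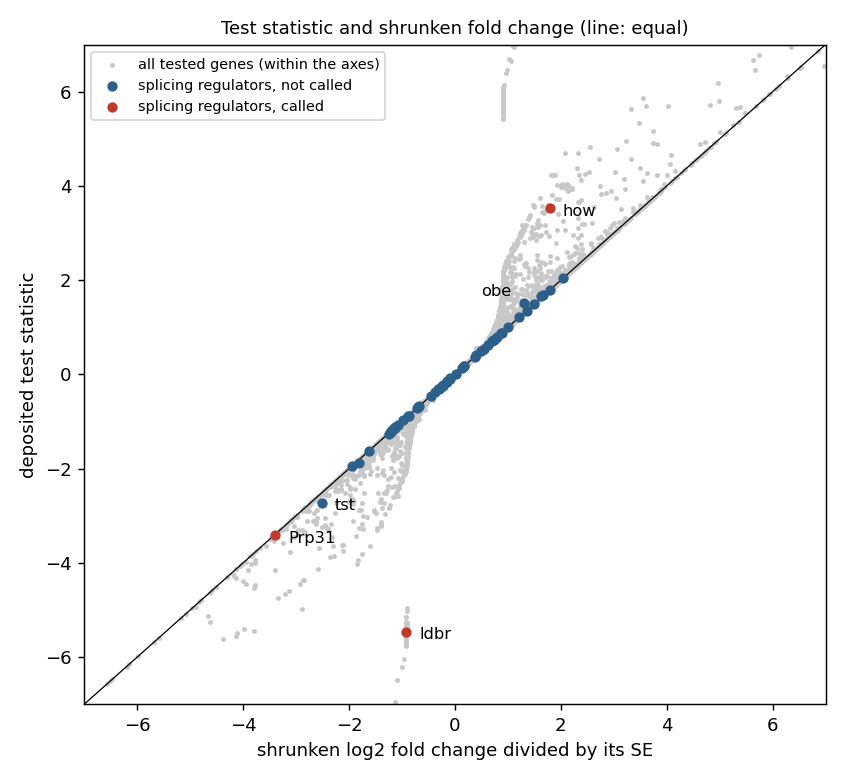
Authors' test statistic (vertical axis) against the shrunken log2 fold change divided by its SE (horizontal axis); grey points are the tested genes within the axes, blue and red points 57 of the 58 splicing regulators, not called and called. Prp31 lies on the line of equality at about -3.4 on both axes, while ldbr stands at -5.47 on the vertical axis and -0.91 on the horizontal one.

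Markers of other cells that such libraries could hold were summed per group. Of 7 glial markers none was called by the authors' deposited table, beside 6.82% of all tested genes. Their summed mean abundance was 2.64 (WT) and 8.92 (dFezf1), of which Gs2 made up 0.262 and 4.08. The 7 glial markers were above 0 in both groups, with repo, the defining glial factor, at 0.162 and 0.356. The 6 blood, fat body and muscle markers summed to 0.0948 (WT) and 0.211 (dFezf1) by the authors' deposited table, with the muscle gene Mhc at 0.00158 in WT and listed at 0 in dFezf1. The 5 progenitor markers summed to 0.122 and 0.839, and the 6 photoreceptor markers to 9.57 and 16.2, nearly all of it norpA. The rhodopsin gene ninaE and the channel gene trp of photoreceptors, and the neuroblast gene wor, are listed at 0 in both groups. The 5 neuronal markers summed to 180 (WT) and 296 (dFezf1), none of them called, and elav had 52.6 and 63.6. Among 6 lamina subtype genes by the authors' deposited table svp was called (0.0408 in WT, 2.02 in dFezf1), and erm stood at 55.1 and 49.2. The part of these cells in the rise of how was not tested.

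The Sm ring is the heptamer that encircles U1, U2, U4 and U5 snRNA, and its genes were among the most abundant members. In the authors' deposited table none of the 7 was called, beside 6.82% of all tested genes. Their log2 fold changes ran from -0.37 (SmD1) to 0.34 (SmD3). SmE had the highest mean abundance of all members in WT, at 165, against 127 in dFezf1 by the authors' deposited table. SmB stood at 120 and 109, SmD2 at 93.7 and 77.9, and SmF at 68.7 and 72.6 in the same table. SNRPG, listed as SmG by the authors, had mean abundances of 52.8 (WT) and 47.3 (dFezf1). SmD1 and SmD3 were the lowest of the ring in WT, both at 31.3, and stood at 23.7 and 40.6 in dFezf1 by the authors' deposited table. For all 7 genes the means of the genotypes were within 2-fold of each other, as they were for 4774 of all 9387 tested genes. Across the ring the highest WT level was over 5 times the lowest.

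The related LSm proteins form rings that bind U6 snRNA or, with LSm1, start mRNA decay. CG9344, which encodes LSm6, had mean abundances of 122 (WT) and 83.2 (dFezf1) by the authors' deposited table, and LSm7 had 131 and 121. CG2021 stood at 62.0 and 86.3, CG6610 at 16.04 and 21.8, and LSm1 at 9.45 and 16.2. Lsm11 belongs to the U7 snRNP, which acts on histone pre-mRNA, and was near the floor at 0.286 and 0.435 by the authors' deposited table. Gem2 encodes a partner of SMN in loading Sm rings onto snRNA. Its log2 fold change of -0.995 ± 0.81 (SE) had an adjusted p of 0.636 by the authors' deposited table, at mean abundances of 4.26 and 1.07. None of these 7 genes was called, beside 6.82% of all tested genes.

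Early recognition of introns was represented by 3 U1-associated genes and 5 genes of the U2 particles SF3a and SF3b. None of them was called, beside 6.82% of all tested genes. Prp40 had a log2 fold change of 0.51 ± 0.51 (SE) by the authors' deposited table, and the LUC7-related genes CG3198 and CG7564 had 0.36 ± 0.45 and -0.51 ± 0.45. In the U2 group the log2 fold changes of the authors' deposited table ranged from -0.68 ± 0.57 for Sf3a2 to 0.32 ± 0.43 for Sf3b2. Sf3b1, the largest SF3b subunit, which surrounds the branch point, went from 5.35 in WT to 3.34 in dFezf1 by mean abundance (adjusted p = 0.840 by the authors' deposited table). Prp40 and Sf3b2 are convergent neighbours whose exons overlap by 188 bases, and reads in that stretch cannot be assigned by strand in these libraries.

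Of the 8 tri-snRNP genes Prp31 was the only call, beside 6.82% of all tested genes. The log2 fold changes of 6 of the 8 were below 0 by the authors' deposited table, as were 48.5% of those of all tested genes, and the roles were assigned after values were seen. Prp8, the scaffold of the catalytic centre, had -0.30 ± 0.31 (SE) with mean abundances of 11.7 (WT) and 8.70 (dFezf1) by the authors' deposited table. Brr2, listed by the authors as l(3)72Ab, is the helicase that unwinds U4 from U6. Its log2 fold change was 0.81 ± 0.45 with an adjusted p of 0.411 by the authors' deposited table, at mean abundances of 3.04 and 5.64. Dim1 had mean abundances of 73.6 (WT) and 32.9 (dFezf1) and a log2 fold change of -0.99 ± 0.61 (adjusted p = 0.478) by the authors' deposited table. Prp3, a U4/U6 protein like Prp31, had -0.53 ± 0.46. CG17266, a cyclophilin, had -0.70 ± 0.81, CG3436 had -0.43 ± 0.38 and CG10333, a DEAD-box helicase, had 0.32 ± 0.51 by the authors' deposited table. The differences between Prp31 and these genes were not tested. The 95% intervals of Dim1 (-2.18 to 0.20), CG17266 (-2.28 to 0.88), Prp3 (-1.43 to 0.36) and CG3436 (-1.17 to 0.31) overlap that of Prp31. Those of Prp8 (-0.90 to 0.30), Brr2 (-0.07 to 1.69) and CG10333 (-0.69 to 1.33) do not overlap it.

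Genes of the catalytic and late steps had mixed signs, 5 above and 2 below 0. The DEAH-box helicase gene l(2)37Cb had mean abundances of 0.430 (WT) and 1.83 (dFezf1) by the authors' deposited table. Its log2 fold change of 1.30 ± 0.79 (SE) had an adjusted p of 0.452 by the authors' deposited table. Prp16 had 0.97 ± 0.65, and Dhx15, which takes spent spliceosomes apart, had 0.31 ± 0.57. The step-2 factor gene Slu7 had 0.31 ± 0.76, CG6015 had 0.51 ± 0.58 and fand had -0.66 ± 0.61 in log2 units, by the authors' deposited table. Apart from ldbr none of these genes was called, beside 6.82% of all tested genes.

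The regulators of splice site choice described from this category are Srrm234, Srrm1 and how. Srrm234, listed as CG7971, encodes a serine- and arginine-rich matrix protein and was one of the 5 most abundant members, at 118 (WT) and 144 (dFezf1). Its log2 fold change by the authors' deposited table was 0.41 ± 0.30. Srrm1, listed as SRm160, had 0.01 ± 0.32 with mean abundances of 8.92 and 8.46.

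Of 8 genes for 3′ end processing and Integrator none was called, beside 6.82% of all tested genes. Of the 8 log2 fold changes in the authors' deposited table, 5 lay within 1 SE of 0. su(f) encodes the largest subunit of the cleavage stimulation factor CstF and had -1.05 ± 0.54 (SE) with an adjusted p of 0.357 by the authors' deposited table. Its mean abundance was 6.39 (WT) and 2.83 (dFezf1). CstF50, another CstF subunit, had an opposite sign, 1.30 ± 0.80, with mean abundances of 1.77 and 12.2 (adjusted p = 0.460 by the authors' deposited table). The endonuclease gene Cpsf73 had -0.96 ± 0.79, and CG3689, which encodes a cleavage factor subunit, had -0.03 ± 0.39. The Integrator genes IntS9 and IntS11 had -0.10 ± 0.63 and -0.05 ± 0.56 in log2 units, by the authors' deposited table.

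There were 3 further helicase genes, none of them called, beside 6.82% of all tested genes. tst, twister, encodes the fly counterpart of the yeast Ski2 helicase of cytoplasmic RNA decay. Its mean abundance was 2.83 (WT) and 0.194 (dFezf1) by the authors' deposited table. The log2 fold change of tst was -2.02 ± 0.81 (SE) and its adjusted p 0.0833 by the authors' deposited table, which makes it the nearest member outside the threshold. Its exons share 528 of 4332 bases with CG10375 on the other strand, a more abundant gene at 39.7 and 22.3. Reads in that stretch cannot be assigned by strand in these libraries. CG10375 had a log2 fold change of -0.50 ± 0.76 by the authors' deposited table and was not called. Dbp45A, a DEAD-box gene, had -1.45 ± 0.81 (adjusted p = 0.379), and obe, listed as CG5205, had 0.99 ± 0.76 (adjusted p = 0.524) by the authors' deposited table. obe had the lowest WT mean above 0, 0.0580, and 0.676 in dFezf1. Among the 6 genes left without a role, CG2926 had 0.98 ± 0.48 (unadjusted p = 0.0403, adjusted p = 0.310), and the others ran from -0.27 to 0.46 on the log2 scale, by the authors' deposited table.

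**Figure D3:**
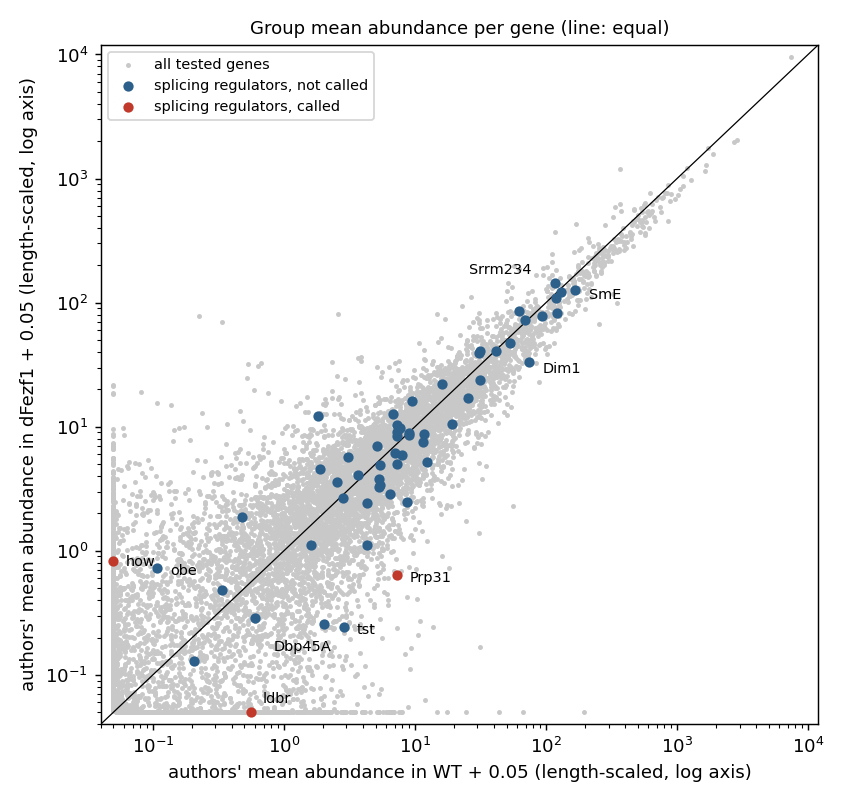
Authors' mean abundance per gene in dFezf1 (vertical axis) against WT (horizontal axis), both length-scaled, on log axes after adding 0.05; grey points are all tested genes, blue and red points 57 of the 58 splicing regulators, not called and called. Most members lie near the line of equality and above 1, Prp31 lies below it, and ldbr and how lie on the edges where 1 group is listed at 0.

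Levels of the members kept much the same order in both genotypes. Across the 58 genes the WT and dFezf1 mean abundances of the authors' deposited table had a Spearman correlation of 0.889, a description of genes measured in the same libraries. In 42 of 58 genes the group means of the authors' deposited table were within 2-fold of each other, beside 4774 of all 9387 tested genes. A WT mean abundance of at least 1 was found for 51 of 58 members, or 87.9%, against 61.3% of all tested genes by the authors' deposited table. The median member had 7.24 (WT) and 7.16 (dFezf1), and the median tested gene 2.03 and 2.09. At the low end, after obe, stood CG17764 (0.154), Lsm11 (0.286), l(2)37Cb (0.430) and ldbr (0.515) by mean abundance in WT, with how listed at 0.

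The deposited errors limit what can be said of the genes that were not called. The median SE of the members was 0.57 on the log2 scale, by the authors' deposited table, against 0.61 for all tested genes. In 6 of 58 members, or 10.3%, the 95% interval lay within a 2-fold change in either direction, beside 5.69% of all tested genes. These 6 were Srrm234, Prp8, Srrm1, SmB, CG3689 and LSm7. Prp8, for example, had an interval of -0.90 to 0.30 and SmB one of -0.73 to 0.59 in log2 units, by the authors' deposited table. In the other 52 members the interval reached beyond a 2-fold change in at least 1 direction. A log2 fold change above 1 in size was found in 8 of 58 members, or 13.8%, beside 12.7% of all tested genes by the authors' deposited table.

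Gene structure was read from the annotation of build BDGP6, where 57 of 58 members were found and all 57 had the same start as in the deposited table. CG3689 had no current entry. By the positions in the deposited table the 58 members lie on every large arm: 16 on 3L, 13 on 3R, 12 on 2L, 10 on 2R and 7 on X. They are compact, with a median span of 2039 bases and a median of 2 introns in the transcript with the most exons, against 2762 bases and 3 introns over 9266 tested genes. For 35 of 57 members, or 61.4%, a single transcript is annotated, against 40.3% of tested genes. Of the 57 members, 8 (14.0%, against 10.3% of tested genes) have no annotated intron, among them SmE, SmF and noi. The exons of 25 members overlap those of another gene in the deposited table. None of the 27 overlapping partners was called, beside 6.82% of all tested genes. The partner ChLD3, listed at 0 in both groups, received no adjusted p.

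The rest of the pathway was counted from lists of splicing genes outside this category. Of 33 further core spliceosome genes, 1 was called by the authors' deposited table, or 3.03%, and it was lower, beside 6.82% of all tested genes called and 2.49% lower. This was Sf3b6, listed as CG13298, a small SF3b subunit that contacts the branch point. Its mean abundance was 345 (WT) and 99.8 (dFezf1), and its log2 fold change -1.63 ± 0.40 (SE) with an adjusted p of 0.00121 by the authors' deposited table. In BDGP6 it spans 6192124 to 6193179 of chromosome 3L. The U2 auxiliary factor genes U2af38 and U2af50 had -1.59 ± 0.64 and -0.99 ± 0.45 with adjusted p of 0.142 and 0.247 by the authors' deposited table, and so did not pass.

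Among 77 auxiliary splicing genes of the SR, hnRNP, neuronal, sex-determination and related lists, 2 were called by the authors' deposited table, or 2.60%, beside 6.82% of all tested genes. The gene sm, smooth, encodes an hnRNP L-type RNA-binding protein. Its mean abundance was 7.45 in WT against 34.0 in dFezf1, and it rose by 2.18 ± 0.37 (SE) on the log2 scale, by the authors' deposited table (adjusted p = 2.66e-07). bru3 encodes a CELF-family RNA-binding protein. Its mean abundance was 88.5 in WT against 22.7 in dFezf1, and it had a log2 fold change of -1.86 ± 0.37 by the authors' deposited table (adjusted p = 1.18e-05). Its paralogue bru1 had 2.20 ± 0.80 with an adjusted p of 0.0514 by the authors' deposited table, just outside the threshold. For sm and bru3 the fold change divided by its SE equals the authors' statistic within rounding (5.94 and -5.08), unlike for ldbr and how.

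The 61 genes that carry splicing regulator beside another category, mostly RNA binding, had 1 call by the authors' deposited table, or 1.64%, beside 6.82% of all tested genes. It was CG10445, listed at 0 in WT and at 1.57 in dFezf1. CG10445 had a log2 fold change of 0.71 ± 0.64 (SE) and an adjusted p of 2.15e-10 by the authors' deposited table. Its fold change divided by its SE was 1.11 and the authors' statistic was 7.14. CG10445 therefore meets the rule of the set described for ldbr. The median log2 fold change of these 61 genes was 0.18, against -0.07 in the 58 members. Of the 249 tested genes with RNA binding as their sole category, 12 were called (4.82%, below the same 6.82%) and the median was -0.09 by the authors' deposited table. Many of the 61 genes, among them U2af38, U2af50 and bru1, are also counted in the core or auxiliary lists above, so these shares are not separate. The shares are descriptions, and the differences between the groups of genes were not tested.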

How the data were processed

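Per the labels' protocols, total RNA of L3 neurons from optic lobes was purified with RNeasy and made into libraries by Smart-seq2 and Nextera chemistry. FastQC, STAR, Salmon, DESeq2 and build BDGP6 appear in the submitters' processing notes without versions, and what each of them produced was not stated there. Samples were grouped by their genotype label (3 WT, 3 dFezf1). The design text calls the replicates biological, and nothing says which animals each came from.

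The deposited comparison holds, per the file headers, a mean normalized count (a signal), a log2 fold change with its SE, a test statistic (a score), a p-value and an adjusted p-value. The 2 deposited group means are an abundance signal with no stated unit. Further columns of per-library values, 12 in all, match no sample label and were not used, so no count test from libraries, left-out replicate or depth per library is given and the authors' own test is the one reported. The deposited adjusted p-values equal Benjamini-Hochberg values over 9387 genes within 0.001.

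Members and lists were chosen with earlier results of these data known. Roles were assigned by hand after values were seen. In the pathway lists, entries that encode no splicing factor, or that matched only through another gene's synonym, were removed after the tables were opened. One member that the rule below names enters every count and is not reported here by itself. Of 184 symbols 166 matched. Named genes were the called members, the 10 with the smallest p, the 5 highest and 5 lowest WT levels, neuronal and sex-determination list members and called genes of the other lists. Other members were named after their values were seen. Intervals are 95% normal intervals from the SE and cover neither shrinkage nor counting error. The Benjamini-Hochberg step was tested on simulated statistics. Alternatives were a threshold of 0.01, no filter on low counts, a mean normalized count of at least 100, an interval that excludes 0, genes above 0 in both groups, the category moved by symbol, and ratios of group means with pseudocounts of 1 and 0.1. Tools were Python 3.11.15, pandas 2.3.3, numpy 2.4.6 and SciPy 1.17.1.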

Additional observations from a re-analysis of the deposited data

How the results depend on the processing

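The 3 calls among the splicing regulators were 3 with no filter on low counts and 2 (ldbr and how) at an adjusted p under 0.01. Moving the category by symbol could not change the count, since no member's deposited symbol names another gene. The number was 1, Prp31, at a mean normalized count of 100 or more (5.07% of all genes tested so), where the 95% interval also excludes 0 (3.82%), and with genes above 0 in both groups (3.19%). By construction the first and last of these leave out ldbr and how. The adjusted p of Prp31 was 0.0121 as deposited and ran from 0.0121 to 0.0248 over the alternatives. The median log2 fold change of the members ran from -0.13 to -0.06. Calls of Sf3b6, sm and bru3 kept their side in every alternative. Of 98 alternatives over 21 named genes 3 ended a call (ldbr and how under the interval, Prp31 at 0.01) and none made one. The 98 leave out settings in which a gene was not tested. The loss of ldbr and how at a mean normalized count of 100 or more, and among genes above 0 in both groups, is therefore not counted there. The threshold of 0.01 and the interval can only remove calls. Leaving out each replicate and fits by edgeR or DESeq2 were not run, because library columns match no sample label. No paired analysis was possible because the genotypes share no title date and the library columns match no sample label. Calls at low counts rest on genes listed at 0 in 1 group, where the depth per library is unknown.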
